A study of Mus musculus with 27 samples.

Results

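The RNAs recovered with an antibody to HuR were compared between RAW264.7 cells treated with LPS and cells treated with DMSO. The comparison uses 8 of the 27 libraries of the study, 4 of anti-HuR RNA from LPS and 4 from DMSO, taken by their labels. The tests also drew their estimate of spread from the 4 anti-HuR libraries of cells given LPS with TM7nox at 10 µM for 6 h, and, for the test of RIP against RNA, from all 24 RIP and total RNA libraries. RAW264.7 is a mouse macrophage line, and LPS is a lipopolysaccharide of the bacterial cell wall. The DMSO cells received the solvent alone for 6 h. The LPS cells received LPS at 1 µg/ml, labelled LPS+DMSO, for the same 6 h, so both groups carried the solvent. In each sample about 30 M cells were lysed, the lysate was incubated with antibody on beads, and the RNA on the beads was made into stranded libraries from 7 ng. This ribonucleoprotein immunoprecipitation is abbreviated RIP. Total RNA from the same treatments (4 libraries each) and RNA on control IgG beads (1 library each) served for comparison. The line is a single transformed culture line, and nothing in the labels says that replicates came from separate cultures, so the p-values measure the spread between these samples, which may be technical.

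HuR, encoded by Elavl1, is an RNA-binding protein that recognises U-rich and AU-rich stretches, most often in 3′ untranslated regions (UTRs) and introns. Many cytokine and early-response mRNAs carry AUUUA repeats there, where HuR and destabilising proteins such as tristetraprolin (Zfp36) can compete. In macrophages, LPS sensed by Tlr4 induces these mRNAs, and their stability and translation are set in part by such proteins.

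Depth was 20.7 to 35.1 M counts in the DMSO RIP libraries and 26.2 to 34.9 M in the LPS ones, and 21.2 and 24.5 M in the IgG libraries. The total RNA libraries held 17.4 to 28.3 M counts except DMSO replicate 1, with 2.73 M. The first principal component of the 8 RIP libraries, with 70.5% of the variance, separated LPS from DMSO, and the second, with 13.3%, parted replicates 1 and 2 from 3 and 4. Of 10 macrophage markers, 9 were at 1 CPM (counts scaled to library size) or more in all 8 libraries, and Mertk was below. All 5 T cell, 5 fibroblast and 5 epithelial markers were under 1 CPM in all 8. The summed B cell markers rose from between 0.156 and 0.639 CPM in DMSO to between 11.6 and 17.1 CPM in LPS, and the LPS sum was nearly all Pax5, since the other 4 markers stayed under 1 CPM. Summed neutrophil markers reached 1.31 CPM at most in LPS (S100a9 was at 0 throughout), and summed endothelial markers were 1.65 to 2.25 CPM in DMSO and 3.94 to 6.45 CPM in LPS. The epithelial markers Cldn4, Krt18 and Krt8 were at 0. The part of other cells in any result was not tested. In bulk libraries such as these, fewer cells of a type and less RNA per cell cannot be told apart.

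LPS changed the content of the anti-HuR fraction broadly. Of 13614 genes tested with edgeR's quasi-likelihood test, 6090 (44.7%) were called at a Benjamini-Hochberg adjusted p under 0.05. LPS raised 3201 (23.5% of all tested) and lowered 2889 (21.2%). Among the risers 1703 changed by log2 of 1 or more, 752 by 2 or more and 135 by 5 or more. Among the fallers these numbers were 1837, 479 and 6. The 4 libraries of one treatment lay wholly above the 4 of the other for 2716 (84.8%) of the risers and 2441 (84.5%) of the fallers. The calls were made on these same values, so these shares describe the called genes and are no separate support. The balance of the 2 directions rests on the scaling. TMM scaling, which takes most genes as equal, called 52.6% of the changed genes higher. Scaling to the total count moved the median of all genes by -0.63 on the log2 scale and called 1299 higher and 6428 lower genes (16.8% higher), so the values below are relative to the typical gene.

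Among genes with a mean of 5 CPM or more over the 8 libraries, no overlap and no predicted symbol, the RNAs that rose furthest included those of several cytokines. Il1a (interleukin-1 alpha) was at 0.135, 0.229, 0.125 and 0.542 CPM in the 4 DMSO libraries and at 315, 437, 316 and 258 CPM in the 4 LPS libraries. Its log2 fold change was 10.38 (SE 0.407, adjusted p = 4.21e-11), the largest of the named genes. Il33, an alarmin of the interleukin-1 family, followed with 10.04 (SE 0.699). Serpinb2, a plasminogen activator inhibitor, rose by 9.61 and Lif, a cytokine of the interleukin-6 family, by 9.48. Lif was at 4.64, 1.84, 1.65 and 2.86 CPM in DMSO and at 1300, 723, 3100 and 2990 CPM in LPS, with replicates 3 and 4 above replicates 1 and 2. Marcks, a membrane-bound regulator of actin, went from 1.38, 0.557, 1.09 and 1.87 CPM to 567, 930, 724 and 847 CPM, a log2 fold change of 9.28 (SE 0.482, adjusted p = 6.89e-10). Also among the 15 named for the largest rise were Il6 (9.12), Il1b (8.80), the trophoblast glycoprotein gene Tpbg (8.76), the endothelial lipase gene Lipg (8.69), the chemokine Ccl22 (8.66), the granulocyte factor Csf3 (8.52), the siderophore binder Lcn2 (8.24), Acod1 (8.18), the matrix protein Thbs1 (8.15) and the activation marker Cd69 (8.10), all as log2 fold changes.

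Under the same limits on level, overlap and symbol, the RNAs that fell furthest were of mixed function, and their falls were smaller. Some genes of lower mean or predicted symbol, such as Cytip (-4.56) and Gm29154 (-4.27), fell as far. Prtg, a membrane protein of the immunoglobulin superfamily, was at 11.4, 11.8, 21.8 and 21.9 CPM in DMSO and at 0.421, 0.787, 0.639 and 0.743 CPM in LPS (log2 fold change -4.71, SE 0.297, adjusted p = 5.83e-09). Slc5a3, the sodium and myo-inositol cotransporter, was at 1180, 1890, 1980 and 1980 CPM in DMSO and at 112, 127, 91.4 and 85.2 CPM in LPS (-4.11, SE 0.237, adjusted p = 2.22e-09). No LPS library of either gene came near a DMSO library. Reads of Slc5a3 may be shared with Mrps6, which overlaps it on the same strand. Ranbp3l fell by 4.48, the neuronal enolase gene Eno2 by 4.18, the inhibitory Smad gene Smad6 by 3.99, the sialyltransferase St6gal1 by 3.97 and the ubiquitin ligase Rnf144b by 3.92 on the log2 scale. The others named were the transcriptional coactivator Ppargc1b (-3.86), the transporter Slc16a12 (-3.83), Fam13c (-3.79), the stearoyl-CoA desaturase Scd2 (-3.64), Jade1 (-3.64), the ubiquitin ligase Neurl1b (-3.59), Nlrp10 (-3.59) and the Ras activator Rasgrp3 (-3.47).

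**Figure D1:**
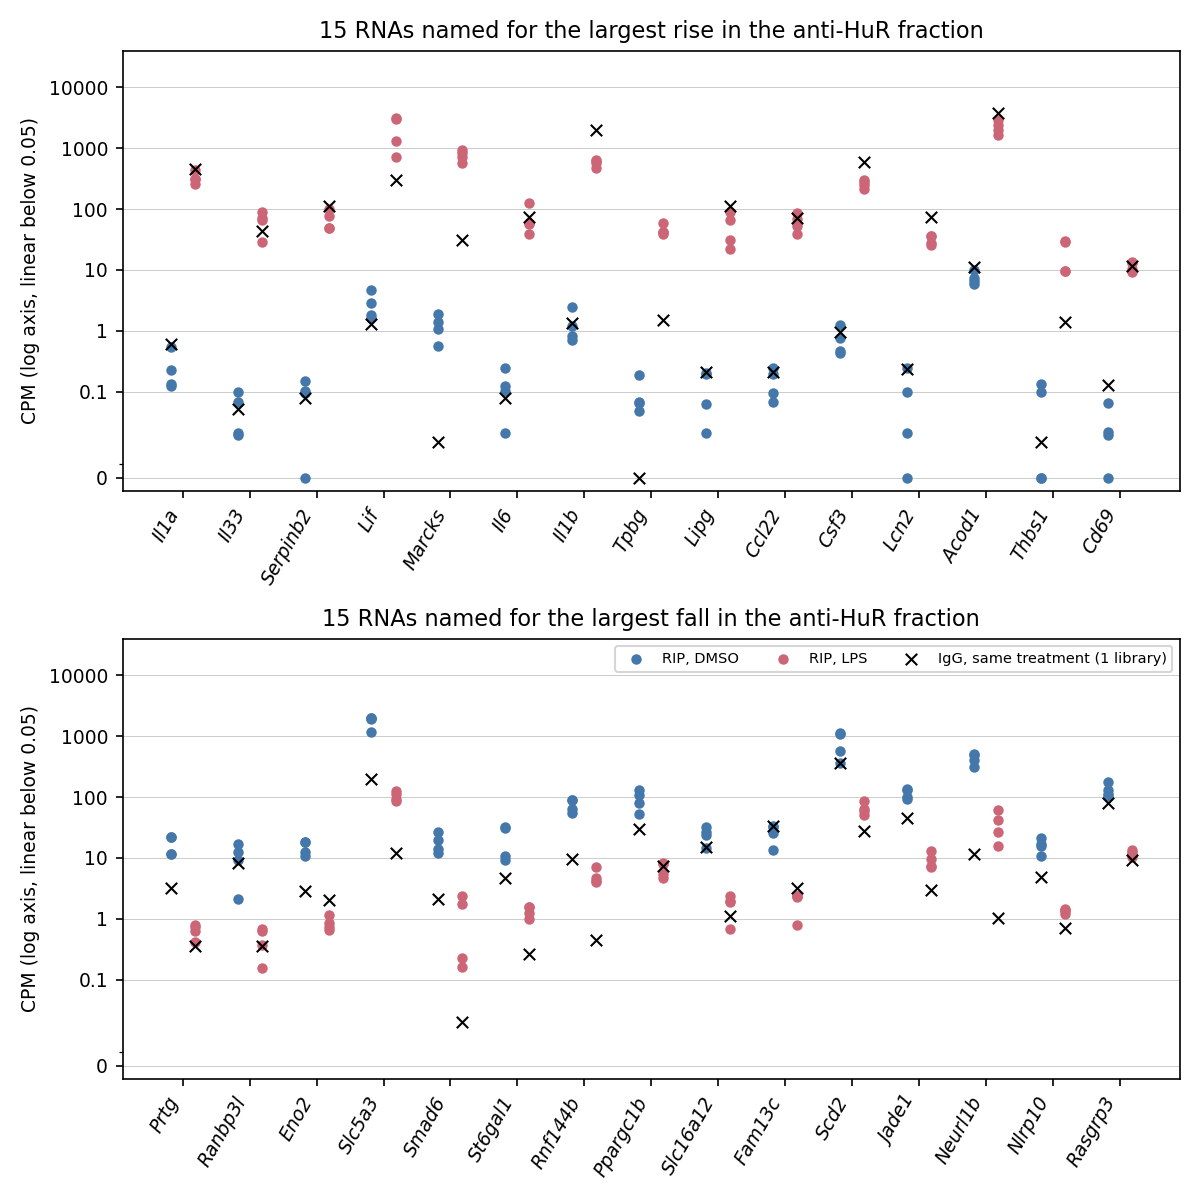
CPM (log axis, linear below 0.05) of the 15 genes named for the largest rise (top) and the 15 for the largest fall (bottom); blue points are the 4 DMSO RIP libraries, red points the 4 LPS RIP libraries, and crosses the 1 IgG library of each treatment. No overlap of the RIP groups was a condition for naming these genes. For 7 of the 15 rising genes the LPS cross lies above all 4 red points.

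The control IgG libraries place these changes. They held much of the same response, so a rise in the anti-HuR libraries is not by itself a rise over the IgG background, and with 1 IgG library per treatment no test could be made. CPM is a share of a library made from 7 ng, so a lower CPM in RIP than in IgG does not mean that less RNA was recovered. Each position against IgG given here and below also rests on the scaling. The TMM factors were 0.5384 to 0.6689 in LPS RIP and 1.262 in LPS IgG. Among the 15 genes with the largest rise, all 4 LPS RIP libraries were above the LPS IgG library for 4 (Lif, Tpbg, Thbs1 and Marcks), all 4 were below it for 7, and they lay on either side for 4. Il1b was at 1990 CPM in the LPS IgG library against 471, 639, 622 and 567 CPM in LPS RIP. Among the 15 with the largest fall, all 4 DMSO RIP libraries were above the DMSO IgG library for 12 and below it for none. Over all genes tested, 5512 (40.5%) had all 4 LPS RIP libraries above LPS IgG, against 880 (27.5%) of those called higher. All 4 were below it for 5229 (38.4%) of all genes and 1813 (56.6%) of those called higher, and the counts of each gene group below stand beside these shares. In DMSO, 5363 (39.4%) of all genes and 1551 (53.7%) of those called lower had all 4 RIP libraries above IgG, and 5706 (41.9%) and 795 (27.5%) had all 4 below.

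To show RNAs whose level in the higher group stood clear of IgG, those at 4 times the same-treatment IgG library or more in all 4 libraries of the higher group were ranked by fold change. This rule was chosen after the values had been seen. It was met by 308 rising and 509 falling genes, of which 188 and 270 also met the limits on level, overlap and symbol given above and were ranked. The 308 are 9.62% of the risers, beside 16.9% of all genes tested that met the rule in LPS, and the 509 are 17.6% of the fallers, beside 14.3% of all genes in DMSO. The 10 largest rises were those of Marcks, Tpbg, Thbs1, Vmn2r90, Lix1, Pax5, Trim30d, Apba1, Mxd1 and Pdpn. Mxd1, a MAX-binding antagonist of Myc, was at 58.4, 53.9, 61.3 and 70.8 CPM in DMSO RIP and at 5250, 6160, 4790 and 4340 CPM in LPS RIP, against 3.87 CPM in DMSO IgG and 245 CPM in LPS IgG. The filter concerns this level and not the change. The LPS IgG library was also above the DMSO IgG library for all 10, as for Marcks (0.026 and 31.6 CPM in DMSO and LPS IgG). The log2 fold change of Mxd1 in RIP was 6.36 (SE 0.354, adjusted p = 1.51e-09), beside 5.64 in total RNA. Tpbg was at 42.3, 41.7, 58.6 and 38.8 CPM in LPS RIP, against 1.49 CPM in LPS IgG and a mean of 1.18 CPM in LPS total RNA. In DMSO its 4 RIP values were 0.187 CPM or less. Lix1 was at 91.9, 113, 118 and 79.3 CPM in LPS RIP and 3.68 CPM in LPS IgG (log2 fold change 7.86, SE 0.293). Trim30d, of an interferon-inducible family with near-identical members between which reads could be split, rose from a mean of 1.73 to 265 CPM, with 36.1 CPM in LPS IgG.

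Among the largest falls of RNAs whose DMSO level stood clear of IgG were those of Slc5a3, Smad6, Rnf144b, Neurl1b, Frat1, Igip, Bcl7a, Tfap4 and Chst3. Tfap4, a helix-loop-helix transcription factor, fell from 989, 814, 1170 and 1330 CPM in DMSO RIP to 226, 167, 115 and 112 CPM in LPS RIP (log2 fold change -2.82, SE 0.342). It was at 23.9 CPM in DMSO IgG and 3.14 CPM in LPS IgG. IgG also fell for Slc5a3, from 195 to 11.9 CPM, for Rnf144b, from 9.46 to 0.453 CPM, and for Smad6, from 2.13 to 0.0323 CPM. Neurl1b fell from 404, 491, 311 and 507 CPM to 41.7, 62.1, 15.9 and 26.4 CPM, with 11.5 CPM in DMSO IgG and 1.03 CPM in LPS IgG. Frat1, an inhibitor of GSK3, was at 17.1, 15.5, 14.7 and 30.0 CPM in DMSO RIP and at 2.01, 1.78, 1.33 and 2.17 CPM in LPS RIP. It was at 0.078 and 0.097 CPM in DMSO and LPS IgG and at a mean of 0.257 CPM in DMSO total RNA, too low there for a test.

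**Figure D2:**
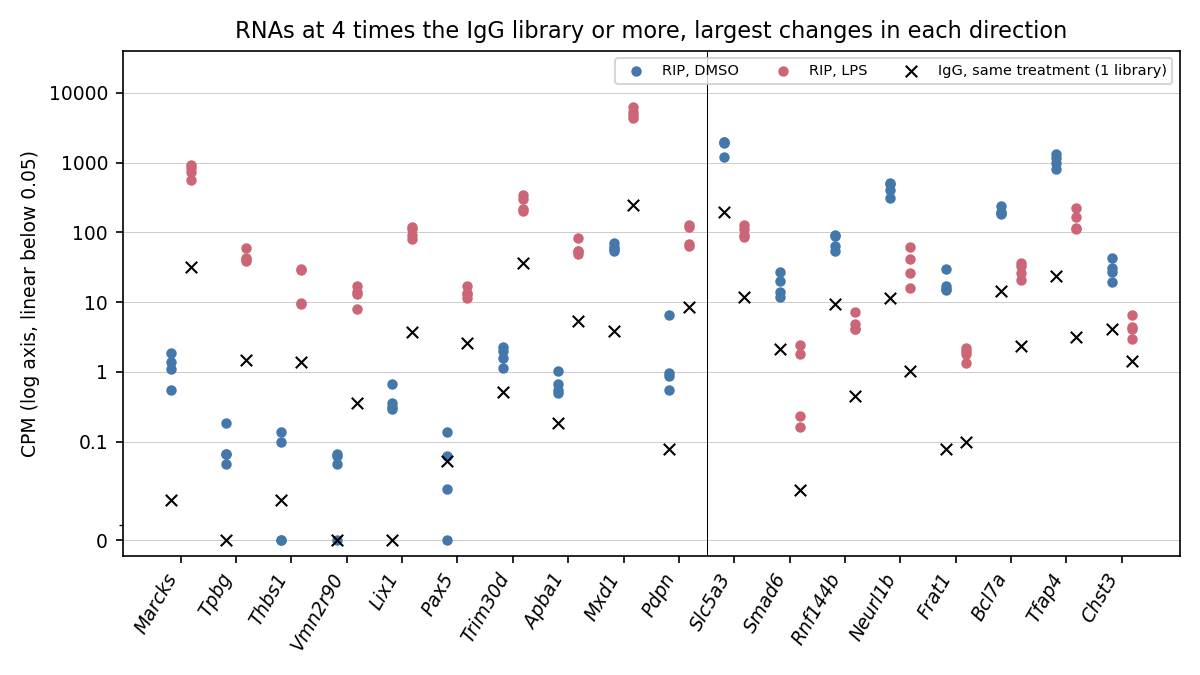
CPM (log axis, linear below 0.05) of genes with the largest changes whose higher group was at 4 times the same-treatment IgG library or more in all 4 libraries, rising genes left of the line and falling genes right of it. Blue points are DMSO RIP, red points LPS RIP and crosses IgG, and each RIP point of the higher group lies above its cross.

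A few AU-rich windows show the sequence context of the members on which the results turn. Each line gives 30 bases of the 3′ UTR, chosen as the window with the most ATTTA in the longest UTR of the gene, in GENCODE M39 on GRCm39, with ATTTA in capitals. The 8 were taken from the named genes because the results below turn on them. They are inflammatory RNAs, some of the RNAs whose change differed from that of total RNA, and the most counted RNA. Pola2, whose change also differed, is not printed, and its longest UTR holds 0 ATTTA. A match is a description of the letters and shows no binding.
Tnf: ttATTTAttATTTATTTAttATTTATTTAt
Il1b: cttacctATTTATTTAtgtATTTAttgatt
Ptgs2: tATTTATTTATTTAtgtgaagaATTTAatt
Lif: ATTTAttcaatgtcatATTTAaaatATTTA
Eno2: tATTTATTTATTTATTTATTTATTTATTTA
Asb1: tttatatatttttgtATTTATTTATTTAtt
Actb: tttgttttggcgcttttgactcaggATTTA
Slfn2: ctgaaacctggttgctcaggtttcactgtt
The Tnf window lies at chr17:35418654-35418683 on the minus strand and holds 5 ATTTA of the 8 in its UTR of 764 bases. Those of Il1b (chr2:129206722-129206751, minus), Ptgs2 (chr1:149981548-149981577, plus) and Lif (chr11:4222414-4222443, plus) hold 3, 4 and 3. The Eno2 window (chr6:124737722-124737751, minus) holds 7 and that of Asb1 (chr1:91484805-91484834, plus) 3. The Actb window (chr5:142889363-142889392, minus) holds the only ATTTA of that UTR, and the Slfn2 UTR, with its window at chr11:82961261-82961290 on the plus strand, has none. Windows with 3 ATTTA or more were found for RNAs that rose (Il1b, Ptgs2, Lif) and for RNAs that fell (Eno2, Asb1). That of Tnf, which was not called, holds 5. Each window was picked for its ATTTA and each gene with the results known, so these lines show no enrichment in any group.

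Secreted cytokines and growth factors rose together, with Tnf as an exception. Of 30 tested (of 32 listed), 27 were called higher and 0 lower, with a median log2 fold change of 3.70 beside -0.00 for all genes tested. That median is also 3.70 with Csf2, which had no count in DMSO, at the bound that 3 counts over the group allow. Under total count scaling 26 were called higher and 0 lower. Over all 13614 genes tested, 23.5% were called higher and 21.2% lower with TMM scaling. The calls in each gene group below are to be read beside these shares. Il1b was at 0.706, 0.819, 1.18 and 2.46 CPM in DMSO and rose by 8.80 (SE 0.396, adjusted p = 1.7e-10). Csf3 rose from a mean of 0.719 to 262 CPM. Il6 was at 0.101, 0.0328, 0.125 and 0.246 CPM in DMSO and at 38.5, 57.9, 127 and 58.0 CPM in LPS. Il10, the anti-inflammatory cytokine, was at no more than 0.673 CPM in DMSO and at 49.1, 29.9, 22.5 and 20.7 CPM in LPS (6.91, SE 0.537). Ifnb1 (interferon beta) went from a mean of 0.10 to 18.6 CPM (7.35, SE 0.644). The genes not called were Tnf, Vegfa and Areg. Of the 27, 9 had all 4 LPS RIP libraries above LPS IgG and 11 had all 4 below.

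Il1rn, the interleukin-1 receptor antagonist, took the most counts of the cytokines, with no correction for length. It was at 1180, 1460, 492 and 332 CPM in DMSO and at 28800, 40500, 44300 and 22300 CPM in LPS, and at 2640 CPM in LPS IgG. The log2 fold change was 5.24 (SE 0.484, adjusted p = 3.5e-07). In DMSO, replicates 1 and 2 were higher than replicates 3 and 4, and the LPS libraries did not show that split.

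All 16 of the 20 listed chemokines that could be tested were called higher, and the same held under total count scaling. The median log2 fold change was 6.37, or 6.00 with Cxcl3, which had no count in DMSO, at the bound that 3 counts over the group allow. Ccl5, which recruits T cells and monocytes, went from 1.11, 1.21, 1.47 and 2.95 CPM to 293, 376, 414 and 465 CPM (7.83, SE 0.378, adjusted p = 2.79e-10). Cxcl2, a neutrophil attractant, rose from 16, 10.9, 9.51 and 11.2 CPM to 1090, 1030, 1180 and 1160 CPM (6.51, SE 0.357). Cxcl10 and Cxcl11, both interferon-induced ligands of Cxcr3, rose by 6.69 and 7.30. All 4 LPS libraries were below LPS IgG for 7 of the 16. They were above it for 2, Ccl4 and Ccl9, which were at 4 times LPS IgG or more.

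Of 31 inducible enzymes and related proteins tested (of 37 listed), 24 were called higher and 1 lower, with a median log2 fold change of 2.77 (20 and 2 under total count scaling). Ptgs2, the inducible prostaglandin synthase, was at 31.6, 15.4, 10.5 and 10.6 CPM in DMSO and at 1610, 2300, 2540 and 1940 CPM in LPS (6.90, SE 0.4, adjusted p = 2.36e-09). Nos2, the inducible nitric oxide synthase, went from 0.605, 0.754, 0.686 and 1.43 CPM to 172, 155, 266 and 265 CPM (7.94, SE 0.364). Acod1, which makes itaconate, rose from a mean of 7.46 to 2230 CPM. All 3 had a lower CPM in LPS RIP than in LPS IgG, where Ptgs2 was at 3900, Nos2 at 977 and Acod1 at 3760 CPM. Of the 24 risers, 7 had all 4 LPS libraries above LPS IgG and 14 had all 4 below. The member that fell was Plau, the urokinase gene (-1.82).

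Among 39 receptors tested (of 42 listed), 23 were called higher and 9 lower, with a median of 1.03 (18 and 13 under total count scaling). Tnfrsf1b, a receptor for tumour necrosis factor, rose from 10.7, 8.10, 10.5 and 13.4 CPM to 1140, 1220, 1280 and 1200 CPM (6.79, SE 0.224, adjusted p = 9.69e-12). Il4ra and the atypical chemokine receptor Ccrl2 rose by 6.21 and 5.87. The LPS receptor Tlr4 fell from 187, 164, 243 and 175 CPM to 90.4, 107, 110 and 75.9 CPM (-1.03, SE 0.177, adjusted p = 0.000203), with no overlap, which the naming rule required. Tgfbr1 fell by 1.59 and Il6st, the shared subunit of interleukin-6 family receptors, by 1.06. With replicates 1 and 2 alone, Il6st was not called (adjusted p = 0.0741). Cxcr4, which the naming rule did not pick, fell by 3.87, the most of the 9. Of the 23 risers, all 4 LPS libraries were above LPS IgG for 3 and below it for 14, beside 27.5% and 56.6% of all genes called higher.

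RNAs of intracellular negative regulators also rose. Of 31 tested (of 32 listed), 27 were called higher and 0 lower, with a median of 2.45 (25 and 1 under total count scaling). Socs3, an inhibitor of cytokine receptor signalling, went from 3.90, 1.67, 2.15 and 3.89 CPM to 661, 637, 767 and 863 CPM (7.95, SE 0.33, adjusted p = 7.43e-11). Zc3h12a, an endonuclease that cuts inflammatory mRNAs, rose from a mean of 4.81 to 128 CPM (4.70, SE 0.173), and Bcl3, a nuclear inhibitor of NF-kB, rose by 4.78. All 4 LPS libraries were below LPS IgG for 12 of the 27. The 10 with all 4 above it included 6 at 4 times IgG or more: Socs1, Socs2, Dusp5, Dusp10, Zc3h12c and Rc3h2.

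The rapidly induced transcription factors were mixed. Of 34 tested (of 35 listed), 22 were called higher and 5 lower (20 and 7 under total count scaling), with a median of 1.68. Batf2 (4.44), Cebpd (4.30) and Irf7 (3.37) rose. Cebpd was at 7.47, 5.67, 4.77 and 5.96 CPM in DMSO and at 120, 112, 120 and 133 CPM in LPS. Egr3 (-2.57), Egr2 (-1.87) and Nr4a2 (-1.51), genes of early growth response and orphan nuclear receptor families, fell. Egr3 was at 15.8, 36.5, 23.9 and 21.1 CPM in DMSO and at 2.06, 4.40, 5.43 and 5.03 CPM in LPS. Of the 22 risers, 8 had all 4 LPS libraries above LPS IgG and 10 had all 4 below.

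All 50 interferon-stimulated genes tested (of 51 listed) were called higher, under total count scaling as well, with a median of 3.49. Gbp5, a guanylate-binding protein, was at 1.28, 0.59, 0.53 and 0.64 CPM in DMSO and at 154, 237, 211 and 170 CPM in LPS (7.93, SE 0.369). Gbp2 rose by 6.81 and Ifit2, which blocks translation of viral RNA, by 6.17. For 44 of the 50, beside 56.6% of all genes called higher, all 4 LPS RIP libraries were below LPS IgG, as for Ifit2, at 1100, 1120, 1550 and 1170 CPM in RIP and 2140 CPM in IgG. They were above it for 4, of which Trim30a was at 4 times IgG or more.

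Macrophage transcription factors and surface proteins gave 23 higher and 4 lower of 37 tested (of 42 listed), with a median of 1.34 (19 and 8 under total count scaling). The costimulatory receptor Cd40 rose from 1.78, 1.02, 1.25 and 1.43 CPM to 103, 84.6, 109 and 131 CPM (6.25, SE 0.236). The high-affinity antibody receptor Fcgr1 rose by 3.66 and the costimulatory ligand Cd80 by 3.65. The transcription factors Bhlhe41 (-2.21), Cebpa (-1.57) and Bhlhe40 (-1.53) fell. Bhlhe41 was at 99.4, 170, 159 and 265 CPM in DMSO and at 38.6, 57.9, 30.2 and 27.5 CPM in LPS, against 9.96 and 1.55 CPM in the 2 IgG libraries. Cd40 and Fcgr1 lay below LPS IgG, at means of 107 and 238 CPM against 324 and 1770 CPM. Of the 23 risers, all 4 LPS libraries were above LPS IgG for 6 and below it for 13.

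**Figure D3:**
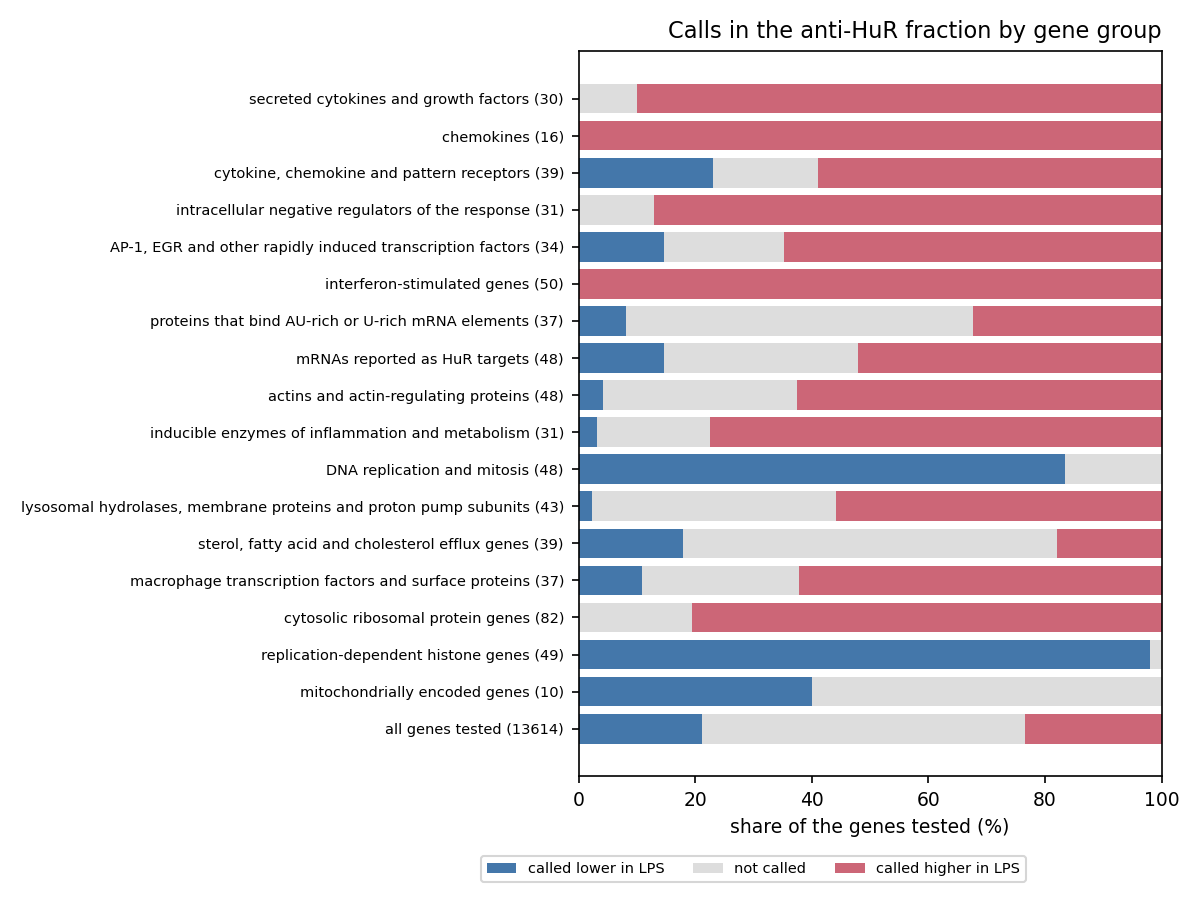
Share of the tested genes of each group (number tested in parentheses) called lower (blue), not called (grey) and called higher (red) in LPS in the anti-HuR fraction, at an adjusted p under 0.05 with TMM scaling. All 16 chemokines and all 50 interferon-stimulated genes are red, 48 of 49 histone genes are blue, and the bottom bar gives all 13614 genes tested.

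The RNAs with the most counts in the fraction were led by Actb, the mRNA of beta-actin. Actb took 12.8%, 9.02%, 7.44% and 5.78% of all counts in the DMSO RIP libraries and 18.3%, 15.5%, 16.7% and 12.3% in the LPS RIP libraries. The lowest LPS library was below the highest DMSO library, but LPS was higher in 4 of 4 same-numbered pairs. An exact two-sided permutation test of the shares gave p = 0.0571 (0.103 adjusted over the 9 shares compared), and no p under 0.0286 can arise with 4 libraries a side. In scaled counts Actb was called higher (log2 fold change 1.48, SE 0.267, adjusted p = 0.000334), though not with replicates 1 and 2 alone (adjusted p = 0.139). In IgG it took 0.618% in DMSO and 1.33% in LPS. The 10 genes with the most counts held 17.9% ± 2.74 of counts in DMSO and 29.1% ± 1.28 in LPS (SD, n = 4 a group), and the top 100 held 38.6% ± 2.21 and 50.8% ± 1.03. Neither measure overlapped between the groups (exact permutation p = 0.0286 each, adjusted 0.0644).

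Sdc4, the heparan sulfate proteoglycan syndecan-4, was at 2920, 2650, 2730 and 3030 CPM in DMSO and at 44800, 59800, 69500 and 68800 CPM in LPS (4.38, SE 0.293, adjusted p = 1.02e-08), against 1240 CPM in LPS IgG. The adhesion receptor Cd44 rose from a mean of 4420 to 15800 CPM (1.79) and the adaptor Ywhaz from 8820 to 18800 CPM (1.06). Ywhaz was not called with replicates 1 and 2 alone (adjusted p = 0.144) or under total count scaling (0.0567). The actin-binding profilin gene Pfn1 was called higher by a narrow margin (0.66, SE 0.252, adjusted p = 0.0416). It lost the call when any 1 of 6 of the 8 libraries was left out (adjusted p 0.0884 to 0.16). Under total count scaling the log2 fold change of Pfn1 was 0.02 (adjusted p = 0.939). Pfn1 was also not called with DESeq2's size factors in edgeR (adjusted p = 0.0584) or with no filter (0.123). BC005537 fell from a mean of 12800 to 6640 CPM (-0.98, SE 0.229), and with replicates 1 and 2 alone it was -0.89 and not called (adjusted p = 0.137). Ptma (-0.19) and the predicted gene Gm23935 (0.75) were not called. With the replicate number as a block, Gm23935 was called (adjusted p = 0.00676). Under total count scaling Ptma was called lower (-0.84).

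Actins and actin regulators gave 30 higher and 2 lower of 48 tested (of 51 listed), with a median of 0.84. Under total count scaling the counts were 10 and 5, so most of these rises were about the size of the difference between the scalings. Of the 30, all 4 LPS libraries were above LPS IgG for 11 and below it for 17. The rises of Marcks and Marcksl1 were larger. Marcksl1 went from 275, 163, 195 and 173 CPM to 3300, 4300, 5930 and 4320 CPM (4.43, SE 0.307). Ezr, which links actin to the membrane, rose by 1.30. Mrtfa, the actin-sensing coactivator, fell by 0.98, and was not called with replicates 3 and 4 alone (adjusted p = 0.0571). The other that fell was Myl12b (-1.68), at under 1 CPM in every RIP library.

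The mRNA of HuR itself was at 3220, 2960, 2320 and 2040 CPM in DMSO RIP and at 3870, 4690, 3450 and 2640 CPM in LPS RIP, with overlap between the groups. Elavl1 was not called (0.44, SE 0.242, adjusted p = 0.155) but was called with the replicate block (adjusted p = 0.0195). Over 16 alternative fits its log2 fold change ran from -0.2 to 0.53, so the sign was not kept in all of them. Elavl1 was at 60.7 and 91.8 CPM in the DMSO and LPS IgG libraries. Of 37 tested RNAs (of 42 listed) that encode proteins binding AU-rich or U-rich elements, 12 were called higher and 3 lower, with a median of 0.18. Over all genes tested the shares were 23.5% higher and 21.2% lower. With the replicate block the counts were 15 and 5, and under total count scaling 5 and 16 with a median of -0.45. Zfp36 rose from 69.4, 47.6, 47.3 and 37.0 CPM to 1120, 1310, 1370 and 925 CPM (4.51, SE 0.262, adjusted p = 2.34e-09), with 1010 CPM in LPS IgG. Its relative Zfp36l2 fell from 566, 450, 369 and 451 CPM to 273, 335, 128 and 166 CPM (-1.06, SE 0.326, adjusted p = 0.015), and Zfp36l1 was not called (0.16). Of the 12 risers, 8 had all 4 LPS libraries above LPS IgG and 2 had all 4 below. Arid5a, which stabilises Il6 mRNA, rose by 3.96 and Igf2bp2 by 2.24. Tial1 (-0.80) and Tia1 (-0.81), translational repressors that bind U-rich RNA, fell. With replicates 1 and 2 alone neither Zfp36l2 (adjusted p = 0.156) nor Tial1 (0.111) was called.

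Of 48 tested mRNAs (of 50 listed) that have been reported as HuR targets, 25 were called higher and 7 lower, with a median of 0.74 (20 and 16, with a median of 0.10, under total count scaling). The list overlaps the cytokine and enzyme groups, and Il1b, Nos2 and Cxcl2 were its smallest adjusted p-values among the rises. The cyclin gene Ccne1 (-1.36), the apoptosis inhibitor Bcl2 (-1.88) and Tlr4 (-1.03) fell. Bcl2 was at 10.8, 16.8, 17.2 and 19.2 CPM in DMSO and at 3.46, 5.66, 5.17 and 3.54 CPM in LPS. Of the 25 that rose, all 4 LPS libraries were above LPS IgG for 8 and below it for 13, beside 27.5% and 56.6% of all genes called higher.

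Lysosomal genes gave 24 higher and 1 lower of 43 tested (of 45 listed), with a median of 0.69 in RIP and 0.10 in total RNA. Under total count scaling they gave 6 higher and 9 lower. Ctsc, the protease that activates granule serine proteases, rose from 287, 181, 320 and 210 CPM to 4140, 3430, 3880 and 2810 CPM (3.81, SE 0.251, adjusted p = 8.5e-09), against 355 CPM in LPS IgG. The cholesterol-binding Npc2 rose by 1.94 to a mean of 92.5 CPM, against 223 CPM in LPS IgG. The progranulin gene Grn rose by 1.59 to a mean of 299 CPM, against 960 CPM. Of the 24 risers, all 4 LPS libraries were above LPS IgG for 3 and below it for 20. Tfeb, the transcription factor of lysosomal genes, fell by 1.39. Lipid genes gave 7 higher and 7 lower of 39 tested (of 40 listed), with a median of 0.05 (3 and 22, with a median of -0.58, under total count scaling). Over all genes tested 23.5% were called higher and 21.2% lower with TMM scaling, and neither lipid count exceeded that share. The cholesterol exporter Abca1 was at 4.78, 4.69, 4.90 and 4.48 CPM in DMSO and at 28.1, 31.5, 27.6 and 38.6 CPM in LPS (2.71, SE 0.174). Acsl1 (1.60) and the oxysterol receptor gene Nr1h2 (0.88) rose, the latter not called under total count scaling (adjusted p = 0.225). None of the 7 risers had all 4 LPS libraries above LPS IgG, and 5 had all 4 below. The fatty acid genes Scd2 (-3.64) and Elovl6 (-2.72) and the cholesterol synthesis gene Dhcr7 (-1.85) fell. Scd2 was at 366, 576, 1080 and 1140 CPM in DMSO and at 49.9, 84.7, 59.0 and 63.1 CPM in LPS.

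RNAs for DNA replication and mitosis fell in the fraction. None of 48 tested was called higher (1 with the replicate block) and 40 were called lower, with a median of -0.93 in RIP beside -1.27 in total RNA (45 lower in RIP under total count scaling). The E2F-family transcription factors E2f2 (-2.81) and E2f8 (-2.44) and the thymidine kinase gene Tk1 (-2.41) had the smallest adjusted p. E2f8 was at 58.1, 52.0, 61.2 and 45.2 CPM in DMSO and at 16.4, 11.3, 6.45 and 6.35 CPM in LPS. Of the 40, all 4 DMSO RIP libraries were below DMSO IgG for 34, beside 27.5% of all genes called lower. Of 49 replication-dependent histone genes tested (of 63 in the table), 48 were called lower and 0 higher, with a median of -1.86 in RIP beside -2.62 in total RNA. Histone H1f5 fell by 2.90, H1f3 by 2.52 and H2bc12 by 2.43. The histone share of RIP counts was 0.186%, 0.126%, 0.14% and 0.146% in DMSO and 0.0475%, 0.0278%, 0.0241% and 0.035% in LPS (exact permutation p = 0.0286, adjusted 0.0644). It was 0.663% in DMSO IgG and 0.0735% in LPS IgG. Members of the histone family have near-identical sequences, so their separate counts are uncertain.

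Cytosolic ribosomal protein genes gave 66 higher and 0 lower of 82 tested, with a median of 0.81, under TMM scaling, and 0 higher and 2 lower, with a median of 0.21, under total count scaling. Rps27 (1.12), Rpl17 (0.99) and Rpl18 (0.96) were called under TMM, and their adjusted p was 0.0734, 0.157 and 0.182 under total count scaling. With replicates 1 and 2 alone Rpl18 was not called (0.0516). Their share of RIP counts was 0.69% ± 0.11 in DMSO and 0.781% ± 0.275 in LPS (SD, n = 4 a group, exact permutation p = 0.686), and all 4 LPS libraries were below LPS IgG for 63 of the 66. Of 10 mitochondrially encoded genes tested, 4 were called lower and 0 higher (6 and 1 with the replicate block, 7 and 0 under total count scaling), including mt-Cytb (-1.17), mt-Nd1 (-1.10) and mt-Nd2 (-1.01). The last 2 were not called with replicates 1 and 2 alone (adjusted p = 0.111 and 0.132). Their summed share was 0.63%, 0.56%, 0.559% and 1.86% in LPS RIP, with replicate 4 apart, and 1.29% ± 0.288 in DMSO RIP.

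More long non-coding RNAs fell than rose in the fraction. Of 1030 tested, 112 were called higher and 305 lower, with a median of -0.57, beside 2905 higher and 2317 lower of 10900 coding genes, with a median of 0.08. The lncRNA share of RIP counts was 0.547%, 0.931%, 0.579% and 0.616% in DMSO and 0.327%, 0.336%, 0.246% and 0.265% in LPS, with no overlap (exact permutation p = 0.0286, adjusted 0.0644). The share was also lower with LPS in the IgG libraries (0.98% and 0.317%) and in total RNA (means of 0.47% and 0.333%). Gm20186 (3.96), Gm32552 (3.85), Ptgs2os2 (2.77), Gm2619 (2.76) and Gm20125 (2.66) were named for the largest rises at a mean of 5 CPM or more with no overlap. Below that mean, Adap2os rose further (5.42). Gm32552 was at 20.5, 18.9, 16.4 and 21.6 CPM in LPS RIP against 0.356 CPM in LPS IgG. Gm29154 (-4.27), Gm42658 (-3.18), the imprinted Peg13 (-2.77), Gm30329 (-1.88) and the imprinted antisense RNA Kcnq1ot1 (-1.79) were named for the largest falls under the same limits. Gm42658 overlaps Capza1, Peg13 overlaps Trappc9 and Gm2619 overlaps Sp140l2 on the same strand, so reads may be shared. Kcnq1ot1 lies antisense to Kcnq1, and the strand setting of the counting is not given. Gm29154 was at 7.77, 8.69, 17.6 and 12.2 CPM in DMSO RIP and at 0.468, 0.472, 0.906 and 0.572 CPM in LPS RIP, with 0.832 CPM in DMSO IgG. Kcnq1ot1 was at 14.0, 86.7, 21.0 and 21.3 CPM in DMSO, and without DMSO replicate 2 it was not called (-0.87, adjusted p = 0.0584).

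RNAs that entered the fraction were defined as those under 1 CPM in all 4 DMSO libraries and at 5 CPM or more in all 4 LPS libraries. There were 52, of which 45 were coding, and 52 of 52 were also called in total RNA. For 11 of the 52, all 4 LPS RIP libraries were above LPS IgG. Besides Tpbg, Lix1 and Thbs1 these included the matrix protease gene Mmp14, at 35.0 to 77.7 CPM in LPS RIP and 11.3 CPM in LPS IgG, and the lncRNA Adap2os, at 6.88 to 12.1 CPM and 1.26 CPM. Pax5, a transcription factor known from B cells, was at 16.7, 13.3, 13.1 and 11.5 CPM in LPS RIP, 2.62 CPM in LPS IgG and a mean of 2.64 CPM in LPS total RNA. RNAs that left, by the reverse rule, were 3: Prtg, Gm29154 and Cytip, a cytohesin-interacting protein gene. The count was 11 at limits of 0.5 and 2 CPM and 5 without DMSO replicate 2. Cytip was at 5.08 to 9.04 CPM in DMSO and at 0.0572 to 0.577 CPM in LPS (-4.56). For all 3, the 4 DMSO libraries were above DMSO IgG.

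The changes in the fraction were close to those of the RNA pool. In total RNA 5190 of 12369 genes tested (42.0%) were called. Of 5519 genes called in RIP and tested in RNA, 5278 (95.6%) had the same sign in both, and for 5190 (94.0%) the RNA log2 fold change was within 1 of the RIP value. The last measure is loose, since only 1703 risers and 1837 fallers of the 6090 called changed by log2 of 1 or more in RIP. A gene with a smaller RIP change could meet it with no change in RNA. Of the RIP-higher genes 67.2% were also called higher in RNA, and of the RIP-lower genes 73.2% were called lower. Genes called in opposite directions were 6 (higher in RIP) and 1 (lower in RIP).

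A test of the difference itself, the LPS change in RIP minus that in total RNA, called 6 of 14311 genes (0.0419%), 2 positive and 4 negative. With the replicate number as a block it called 148 (1.03%), 69 positive, among them all 6. DESeq2 called 67. Replicates 1 and 2 alone called 0 in edgeR, with 299 genes at an unadjusted p under 0.05, and replicates 3 and 4 alone called 13. The 6 kept their sign in each of these fits and in the 16 leave-one-out fits.

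Tnf, the tumour necrosis factor gene (ENSMUSG00000024401, chr17:35418357-35420983), had the largest difference of the 6. It was at 534, 749, 556 and 467 CPM in DMSO RIP and at 655, 481, 469 and 504 CPM in LPS RIP, with full overlap (log2 fold change -0.16, SE 0.329, adjusted p = 0.711). In total RNA it was at 54.6, 75.1, 44.0 and 36.9 CPM in DMSO and at 584, 768, 686 and 728 CPM in LPS (3.65, SE 0.241). The difference was -3.95 (adjusted p = 2.45e-05). In DMSO all 4 RIP libraries were above the IgG library, at 48.3 CPM, and in LPS all 4 were below it, at 1160 CPM.

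Pola2, the regulatory subunit of DNA polymerase alpha (ENSMUSG00000024833, chr19:5990570-6014261), was called higher in RIP. It is not a member of the replication and mitosis list above. It was at 14.0, 14.1, 15.7 and 11.4 CPM in DMSO RIP and at 55.4, 85.9, 90.1 and 70.3 CPM in LPS RIP (2.42, SE 0.2). In total RNA it was at 56.9, 32.9, 44.4 and 41.5 CPM in DMSO and at 42.6, 35.6, 37.5 and 35.2 CPM in LPS (-0.27, not called), and the IgG libraries held 48.3 and 42.4 CPM. The difference was 2.55 (adjusted p = 1.15e-06). DMSO RIP was thus below DMSO IgG, and LPS RIP above LPS IgG, in all 4 libraries each. Slfn2, an interferon-induced Schlafen gene, was at 118, 67.8, 45.1 and 39.5 CPM in DMSO RIP and at 2170, 2320, 2780 and 2480 CPM in LPS RIP (5.12, SE 0.344), beside 3.01 in total RNA. The difference of 1.97 (adjusted p = 0.0224) lost its call in 7 of 16 leave-one-out fits (adjusted p 0.0527 to 0.062). Slfn2 overlaps Slfn10 on the other strand.

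Eno2, Asb1 and Seh1l fell in RIP and were not called lower in RNA. Eno2 (chr6:124736247-124746636) was at 10.7, 18, 12.5 and 18.6 CPM in DMSO RIP and at 0.655, 0.734, 0.852 and 1.14 CPM in LPS RIP. In total RNA it was at 0.428, 1.69, 1.25 and 1.63 CPM in DMSO and at 0.998, 1.08, 1.41 and 0.866 CPM in LPS (-0.35, not called), so the difference of -3.88 (adjusted p = 0.0032) rests on few counts there. It was not called with replicates 3 and 4 alone (-3.70, adjusted p = 0.0748). Asb1, an adaptor of a ubiquitin ligase (chr1:91468266-91487311), fell in RIP from 49.7, 60.6, 64.3 and 69.6 CPM to 19.1, 15.7, 16.2 and 18.1 CPM (-1.85, SE 0.308). In total RNA it rose (0.91, adjusted p = 0.0324). The difference was -2.84 (adjusted p = 0.0132, and 0.0517 without RNA DMSO replicate 4). Seh1l, of the nuclear pore and GATOR2 complexes, fell in RIP from 291, 313, 260 and 256 CPM to 131, 156, 84.6 and 87.0 CPM, with 0.06 in total RNA and 33.4 and 34.0 CPM in IgG. Its difference of -1.49 (adjusted p = 0.0472) lost its call in 15 of 16 leave-one-out fits (adjusted p 0.0617 to 0.191).

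**Figure D4:**
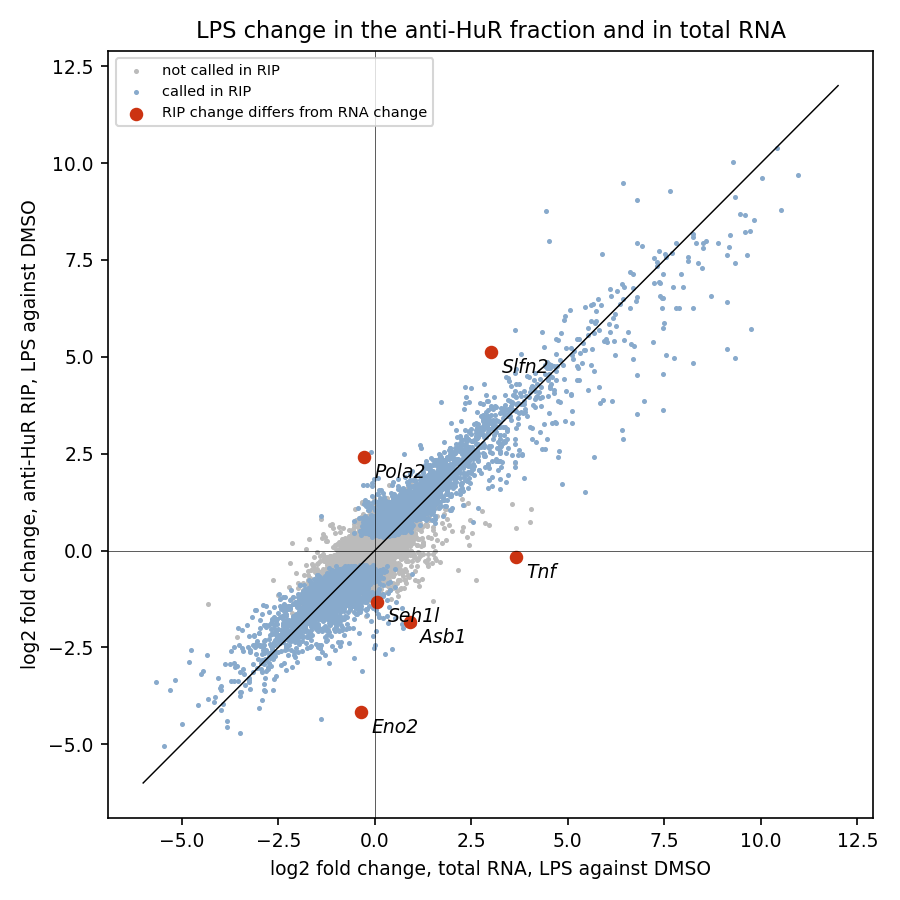
Each point is 1 of the 11782 genes tested in both assays, with the log2 fold change of LPS against DMSO in total RNA on the x axis and in anti-HuR RIP on the y axis; the diagonal marks equal changes. Most genes lie near the diagonal, and the 6 genes in red are those whose 2 changes differed at an adjusted p under 0.05.

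**Figure D5:**
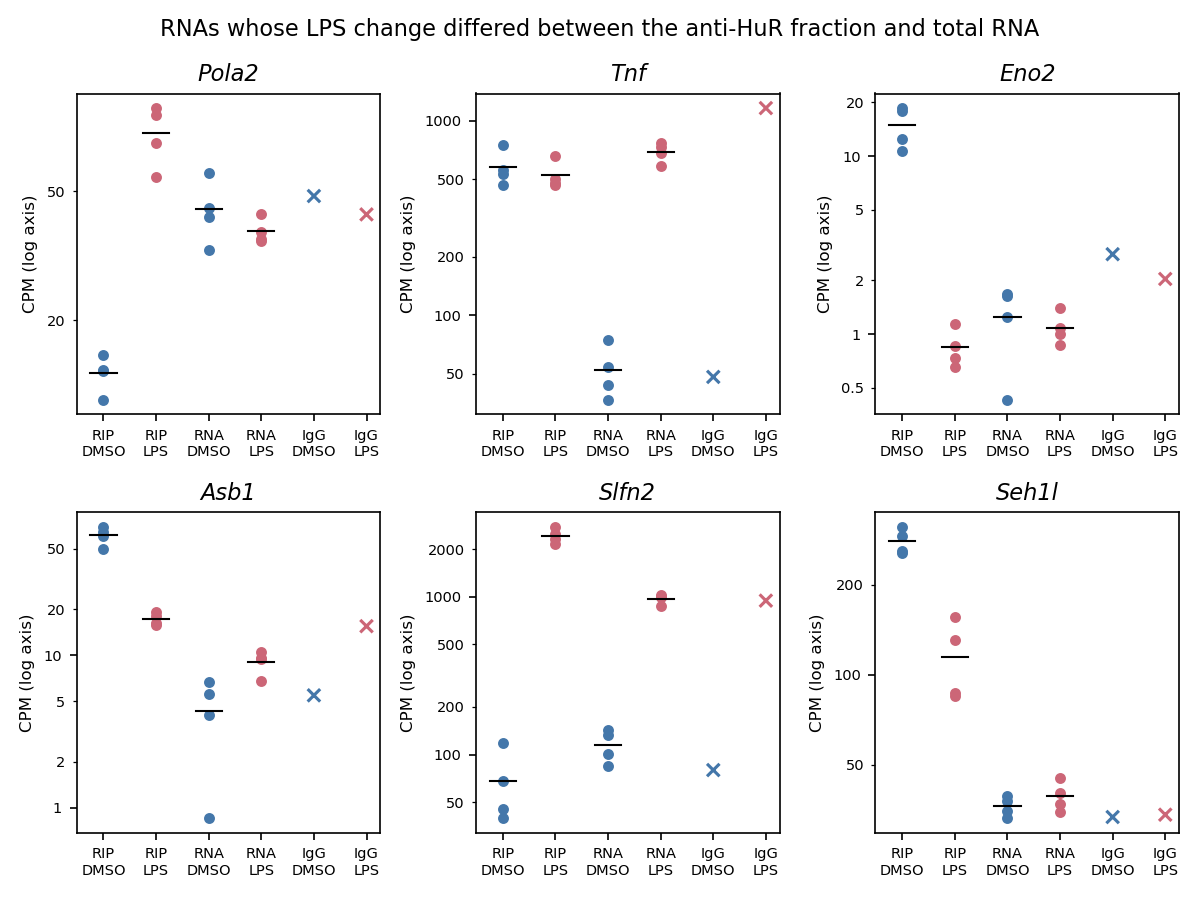
CPM (log axis, a separate scale per panel) of the 6 genes whose LPS change differed between assays, in 4 RIP, 4 total RNA and 1 IgG library per treatment, with bars at the means of 4. Tnf is level in RIP at 577 and 527 CPM while it rises in RNA, and Eno2 falls from 14.9 to 0.846 CPM in RIP, beside means of 1.25 and 1.09 CPM in RNA.

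Some differences were not called in edgeR without the replicate block but were called with it. Ctsc rose more in RIP (3.81) than in total RNA (2.34), a difference of 1.35 with an adjusted p of 0.148 without the block and 0.00137 with it, and DESeq2 called it too (adjusted p = 0.00586). Osm, Il27 and Ccl5 rose less in RIP, with differences of -1.52, -2.20 and -1.57 under the block (adjusted p = 0.0263, 0.0248 and 0.0341), and none was called without it (0.54, 0.481 and 0.512) or in DESeq2 (0.197, 0.0584 and 0.116). Cux1, a homeobox transcription factor, fell in RIP from 1400, 1740, 1320 and 1620 CPM to 441, 501, 316 and 350 CPM (-1.95) beside -1.01 in RNA, with an adjusted p of 0.264 without the block, 0.00201 with it and 0.108 in DESeq2. Tpbg had a RIP change of 8.76 and an RNA change of 4.44, but the difference of 4.28 was not called in edgeR (adjusted p = 0.365, and 0.105 with the block) and was called in DESeq2 (adjusted p = 0.0013), and its RNA level was at most 0.164 CPM in DMSO. Osm, Il27 and Cux1 were chosen after their values were seen.

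The 3′ UTRs of the genes that rose differed by their position against IgG. ATTTA and runs of 7 T were counted on the coding strand, overlapping matches included. Over the 10634 coding genes tested with a UTR of at least 50 bases, the median UTR length was 1380 bases, 74.0% held ATTTA and 48.7% a run of 7 T. For all genes called higher these were 1190 bases, 72.0% and 43.0%, and for those called lower 1750 bases, 79.4% and 57.1%. The called-higher genes with all 4 LPS RIP libraries above LPS IgG (717) had a median of 2020 bases, with ATTTA in 89.1% and 7 T in 79.9%. Those with all 4 below it (1664) had a median of 836 bases, with ATTTA in 63.3% and 7 T in 26.6%. The values are descriptions with no test, since long UTRs hold more matches. Among UTRs of 1000 to 2000 bases alone, a run of 7 T was in 75.0% of the 204 above IgG and 37.4% of the 364 below, beside 51.5% of all 2615. In that length range called-higher and called-lower genes held it in 50.7% and 51.7%.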

How the data were processed

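The authors deposited 1 table of raw counts, whole numbers of reads for 55483 Ensembl genes in 27 libraries, with symbols and biotypes per the file headers. The submitters' processing notes name FastQC 0.11.9, STAR, HTSeq, DESeq2 and the build GRCm39, without roles. Annotation release and strand setting are not given in the sources used. No molecular identifiers are stated, so PCR copies count separately.

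Counts were tested in R 4.3.3 with edgeR 4.0.16 (quasi-likelihood, two-sided, TMM scaling, filterByExpr with a minimum count of 10, Benjamini-Hochberg adjustment over all genes tested). SE is the log2 fold change over the square root of F. The 12 RIP libraries, including 4 of LPS with TM7nox, which share the estimate of spread, were fitted together, as were the 12 RNA libraries, and the difference came from all 24. Each adjusted p of a gene comes from edgeR unless DESeq2 1.42.0 is named. CPM values use 1 TMM scale over 27 libraries and are not per length. On simulated counts for RIP LPS against DMSO (13614 genes), 47 of 100 genes changed by log2 of 1 and 88 of 100 changed by 2 were recovered, with 2 false calls. Only 200 genes were changed, with random signs and the same mean profile for all libraries. In the data 6090 genes were called and the balance of directions rests on the scaling, so the false calls do not carry over.

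Replicate numbers come from the labels. Same-numbered DMSO and LPS RIP libraries deviated together (correlations 0.36, 0.52, 0.41 and 0.52), so the numbers were taken as pairs and a fit with the replicate block was made beside the one without. No pair of replicates agreed within sampling noise. Named genes were a panel of 10 (Zfp36, Ifnb1, Nos2, Ptgs2, Cxcl10, Il10, Il6, Il1b, Tnf and Elavl1), the 15 largest called changes in each direction (mean of 5 CPM or more, no overlap, no predicted symbols), the 10 with the most counts, up to 3 per list and direction, 5 lncRNAs per direction (same limits, predicted symbols allowed) and those called for the difference. Plau, Cxcr4, Myl12b, Vegfa, Areg, Mmp14, Adap2os, Cytip and the members named for standing above IgG fall outside that rule and were chosen after their values were seen. Some genes picked by these rules are not reported here. The members, lists and rules were chosen with earlier results of these data known. UTRs are of GENCODE M39 on GRCm39, to which 51731 identifiers (93.2%) matched. Shares were compared by exact permutation tests in scipy 1.17.1. Alternatives were other scalings, DESeq2, no filter, each library left out and pairs of replicates.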

Additional observations from a re-analysis of the deposited data

Results flagged for a closer look

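The LPS change differed between the anti-HuR fraction and total RNA, by the test of the difference, for 6 genes: Tnf (-3.95 on the log2 scale), Eno2 (-3.88), Asb1 (-2.84), Pola2 (2.55), Slfn2 (1.97) and Seh1l (-1.49).

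In 14 of 258 sets of 4 RIP values (named genes and shares in each treatment), 1 library stood apart from the other 3 by Dixon's criterion, which chance meets in about 1 of 20. In DMSO replicate 1 these were Ccne1 (22.5 CPM against 15.8 to 16.3), Cxcl10 (6.96 CPM against 2.09 to 2.75), Gbp5 (1.28 CPM against 0.53 to 0.64) and Slc5a3 (1180 CPM against 1890 to 1980). In DMSO replicate 2 they were Bhlhe40 (16.6 CPM against 7.63 to 8.64), Kcnq1ot1 (86.7 CPM against 14.0 to 21.3) and Gm32552 (1.21 CPM against 1.33 to 1.35). In DMSO replicate 3 they were Ptma (11000 CPM against 8930 to 8990), Tpbg (0.187 CPM against 0.0492 to 0.0673) and Cxcl11 (0.187 CPM against 0.492 to 0.504). In LPS, Fam13c stood apart in replicate 1 (0.795 CPM against 2.31 to 2.40), Gm20186 in replicate 2 (25.0 CPM against 16 to 16.7) and Ifit2 in replicate 3 (1550 CPM against 1100 to 1170). The mitochondrial share stood apart in LPS replicate 4 (1.86% against 0.559% to 0.63%).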

How the results depend on the processing

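The count of 6090 genes called in RIP was 8073 with the replicate block, and all 6090 were among them. DESeq2 called 6459, DESeq2's size factors in edgeR 6122, no filter 6029 and the 8 libraries alone 6160. Leaving out each library gave 5145 to 6294 (2580 to 3147 higher, 2563 to 3147 lower). Replicates 1 and 2 alone called 3392 (1714 higher, 1678 lower), 3225 of them shared, and replicates 3 and 4 alone 5537. Total count scaling called 1299 higher and 6428 lower. It shared 4188 calls with the main fit, and 5652 of the 6090 main calls kept their direction. The calls in total RNA (5190) were 4427 to 5585 in leave-one-out fits. The count of differences between RIP and RNA, 6, was 148 with the replicate block, 67 in DESeq2, 49 with no filter, 13 in replicates 3 and 4, 0 in replicates 1 and 2 (edgeR, 299 genes at an unadjusted p under 0.05) and 4 to 11 in leave-one-out fits, of which 11 was without RNA DMSO replicate 1. The cause of these shifts was not tested. RNAs that entered (52) were 62 at limits of 0.5 and 2 CPM and 55 at 2 and 10 CPM, and those that left (3) were 11 and 3. Leaving out each library gave 3 to 5 that left, with 5 without DMSO replicate 2 (an alternative added after the data were seen, as were the IgG rule and the range of UTR lengths). The LPS minus DMSO difference in the pseudogene share, 0.00173 points, came to -0.038 with replicates 1 and 2 alone and 0.0415 with the other pair. Over 2128 refits of 133 named genes, 2098 gave the same call, 27 lost the call, 3 gained it and 0 calls reversed. Many of these genes were named for large changes without overlap, so these counts do not stand for all genes. The replicate block changed 2 calls of named genes in RIP, those of Elavl1 and Gm23935, and no other. Genes under about 10 counts in a library are limited by depth.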
